A study of Drosophila melanogaster with 2 samples.

Results

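The RNA of lncRNA:Hsromega and the mRNAs of 7 genes for hnRNP-type proteins known to gather on it were examined in RNA immunoprecipitation (RIP) sequencing of fly ovaries. The 8 genes were taken by name (lncRNA:Hsromega, Hrb87F, Hrb98DE, Hrb27C, sqd, nonA, heph and glo), and each was found in both tables, which list 17720 genes. In RIP an antibody draws a protein out of a lysate, and the RNA that comes with it is sequenced. Ovaries came from wild-type Oregon-R Drosophila melanogaster females no older than 12 hours after eclosion, with roughly 200 females behind each experiment, and 1 lysate was shared between both reactions. The first reaction received an antibody to the histone demethylase Lsd1. The second, titled IgG-RIP, is the control, and its label gives an antibody to GFP, a protein that a wild-type fly lacks. Each group is 1 library, so no test between the groups was possible, no p-value is given, and the spread between repeated precipitations is unknown.

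Hsromega is a heat-inducible gene that makes long noncoding RNAs. Its nuclear transcript organises omega speckles, bodies in the nucleoplasm near chromatin that hold hnRNP proteins away from active RNA processing, and after heat shock the RNA and these proteins collect at the Hsromega gene itself. The hnRNP proteins bind nascent and mature transcripts and act in splicing, export, localisation and translation. Several are also regulators of maternal mRNAs: Squid, Hrb27C, Glorund and Hephaestus help to place or silence gurken, oskar or nanos mRNA in the oocyte. The values below are for the RNA of these genes and say nothing of their proteins.

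The level of each gene was read as FPKM, sequenced fragments scaled to transcript length and to library size, with the lower and upper bound deposited beside it. In the IgG-RIP library Hrb27C was the most abundant of the 8 at an FPKM of 50.03 (bounds 47.6 to 52.5), followed by sqd at 27.6 (26.1 to 29.2) and Hrb98DE at 18.2 (16.7 to 19.7). lncRNA:Hsromega had 13.7 (12.6 to 14.8) and Hrb87F 13.0 (11.7 to 14.4), and the bounds of these neighbours overlapped. glo stood at 8.44 (7.41 to 9.47), and heph at 3.64 (3.13 to 4.15) and nonA at 3.60 (3.02 to 4.18) overlapped at the low end. The other neighbours in this order were apart by their bounds.

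In the Lsd1-RIP library the order by FPKM was the same, and all 8 values were higher than in the control. Most genes were higher too: among the 6025 compared below, the lower quartile of the log2 ratio was 0.13. Hrb27C had 60.6 (57.7 to 63.5), sqd 46.3 (43.9 to 48.7) and Hrb98DE 24.2 (22.4 to 26.0). lncRNA:Hsromega had 24.0 (21.9 to 26.2), so that its bounds here overlapped those of Hrb98DE above it and no longer those of Hrb87F at 15.4 (13.9 to 16.8). glo had 10.3 (9.08 to 11.5), heph 7.10 (6.26 to 7.95) and nonA 4.52 (3.81 to 5.23), and heph and nonA were now apart. Summed over the 8 genes, FPKM went from 138 to 192. The sum over all genes other than rRNA genes rose as well, and Lsd1-RIP values had to be multiplied by 0.761 to equal the control.

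**Figure D1:**
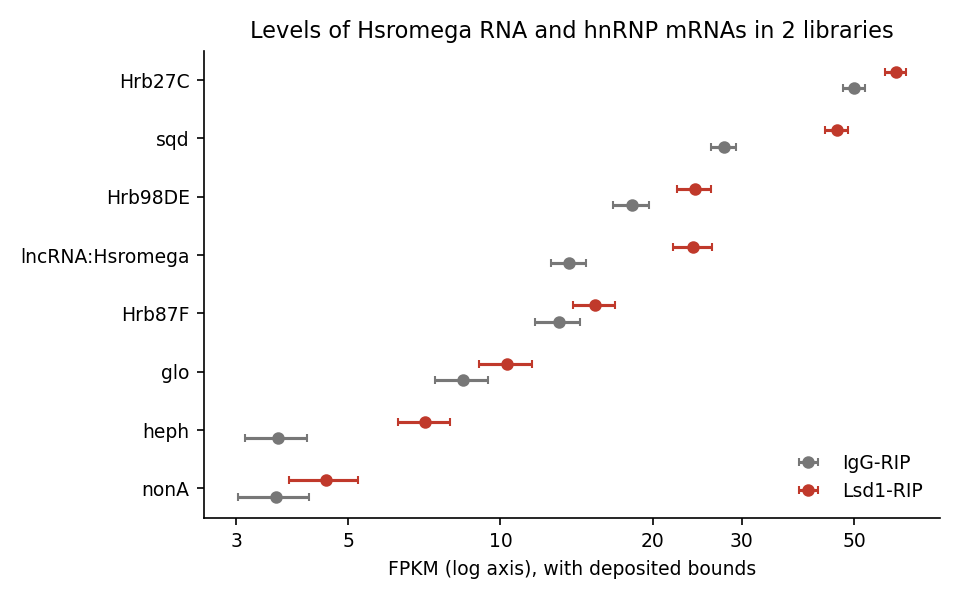
FPKM (log axis) of the 8 genes in the IgG-RIP (grey) and Lsd1-RIP (red) libraries, 1 library each, with bars for the deposited bounds. The order is the same in both, and lncRNA:Hsromega moves from beside Hrb87F (13.7 and 13.0) to beside Hrb98DE (24.0 and 24.2).

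For the comparison of the libraries, each gene was given the log2 ratio of (Lsd1-RIP FPKM + 1) to (IgG-RIP FPKM + 1), with an interval of 2 standard errors on each side, computed from those bounds. The interval leaves out any spread between precipitations. Genes quantified without error (status OK) in both tables, and with a mean FPKM that reached 1, are called eligible here, and all 8 were among the 6025 that qualified. The whole set of eligible genes was shifted upward, with a median log2 ratio of 0.32 and an interquartile range from 0.13 to 0.52, so a positive ratio is read against that median.

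lncRNA:Hsromega (FBgn0001234, 3R:21296127-21317836 on dm6, a locus of 21710 nt) went from an FPKM of 13.7 to 24.0, which is 1.76-fold. Its log2 ratio was 0.77 (interval 0.61 to 0.94), or 0.45 above the all-gene median, and 92.8% of eligible genes had a lower one. The deposited bounds of the libraries did not overlap. Among 36 eligible genes named as long noncoding RNAs it ranked 5 by mean FPKM and 10 by log2 ratio, and their median ratio was 0.52. Among all eligible genes it ranked 461 by mean FPKM. The only annotated locus inside it, the miRNA precursor mir-4951, was listed at 0 in both libraries.

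The closely related hnRNP A/B-type genes Hrb87F and Hrb98DE, whose proteins bind splicing silencers and are standard components of omega speckles, had ratios on either side of the all-gene median, although Hrb98DE fell below it with a pseudocount of 0.1 and with FPKM sums made equal. Hrb87F (3R:13656846-13660531) went from 13.0 to 15.4, with overlapping bounds and a log2 ratio of 0.22 (0.04 to 0.41). Hrb98DE (3R:28599834-28605777), which also acts in germline stem cell upkeep, went from 18.2 to 24.2, with bounds apart and a ratio of 0.39 (0.24 to 0.55). Both intervals hold 0.32, so neither gene was set apart from the median gene. The Hrb98DE locus contains 7 snoRNA loci, all listed at 0 in both libraries.

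Among the genes whose proteins regulate maternal mRNAs, sqd and heph lay well above the median and Hrb27C and glo did not. sqd (3R:13634862-13646304) encodes Squid, which anchors gurken mRNA at the dorsal anterior corner of the oocyte. It went from 27.6 to 46.3, a fold of 1.68 and a log2 ratio of 0.73 (0.62 to 0.83), above 90.5% of eligible genes. Its neighbour Hrb87F lies 10541 bp away on the same arm, and their ratios differed by 0.50.

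heph (3R:31846987-32015520) encodes the polypyrimidine tract-binding protein, a splicing regulator that also represses oskar translation. It went from 3.64 to 7.10, a fold of 1.95 and the highest log2 ratio of the 8 at 0.80 (0.59 to 1.02), above 94.1% of eligible genes. Its locus spans 168534 nt and contains CG2003, with FPKM of 1.62 and 1.49, and lncRNA:CR45556, listed at 0 in both. The kit does not mark strand, so fragments of heph and CG2003 cannot be separated where their transcripts overlap.

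Hrb27C (2L:6920704-6932057), also called Hrp48, works with Squid on gurken and keeps oskar silent until it reaches the posterior pole. It went from 50.03 to 60.6, a fold of 1.21, and its narrow bounds were apart, yet its log2 ratio of 0.27 (0.17 to 0.37) held the all-gene median. glo (3R:11815206-11819339), the hnRNP F/H-type repressor of unlocalised nanos mRNA, went from 8.44 to 10.3 with overlapping bounds and a ratio of 0.26 (0.04 to 0.48). nonA (X:16361569-16371547), a relative of mammalian NONO known for its part in vision and courtship song, went from 3.60 to 4.52 with overlapping bounds and a ratio of 0.26 (0.0041 to 0.52). For glo and nonA too, the interval holds 0.32.

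The 8 genes thus fell into 3 with ratios from 0.73 to 0.80 (heph, lncRNA:Hsromega, sqd) and 5 with ratios from 0.22 to 0.39, a division seen in the values and not fixed beforehand. The lowest lower bound among the 3 was 0.59, and the highest upper bound among the 5 was 0.55. The division was made by these same ratios, so that gap is no support for it. By the approximate fragments described below the division was not kept, with lncRNA:Hsromega the lowest of the 8 at 0.0075 and sqd at 0.45. None of the 8 was 2-fold changed. Among eligible genes 2.12% were higher by that margin and 0.697% lower, which is 128 and 42 genes, or 62 and 63 once ratios were centred on their median. Deposited bounds were apart and higher in the Lsd1-RIP library for 5 of the 8, against 36.1% of all eligible genes and 41.6% of the 2283 whose mean FPKM lay within the range of the 8. They were apart and lower for none, against 1.64% of eligible genes. The median ratio of the 8 was 0.33, beside 0.32 for all eligible genes, and 4 of the 8 lay above that. With the 7 hnRNP genes alone the median was 0.27.

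**Figure D2:**
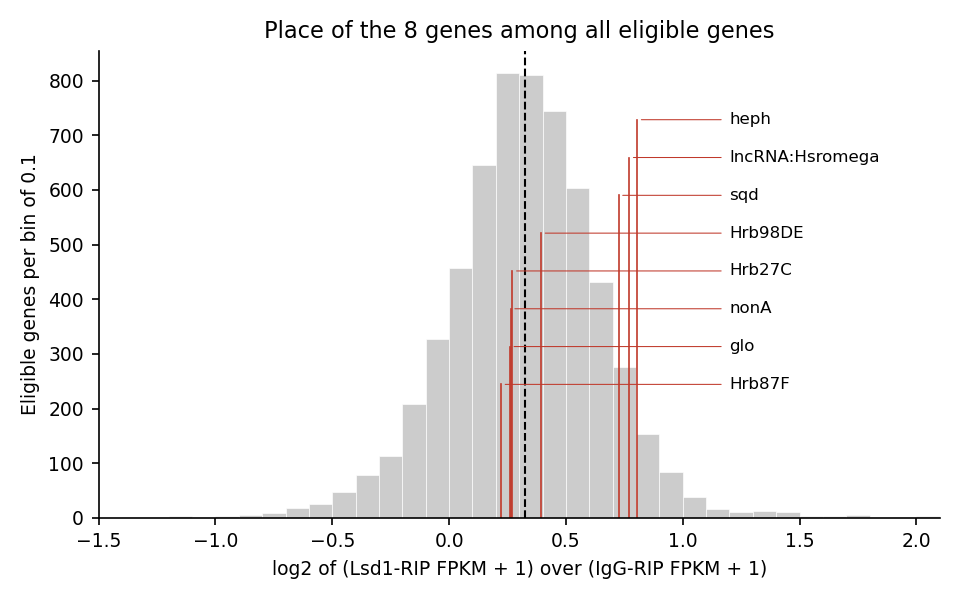
Histogram of the log2 ratio of (FPKM + 1), Lsd1-RIP over IgG-RIP, for eligible genes in bins of 0.1, with the 8 genes as red lines and the all-gene median of 0.32 as a dashed line; 57 genes outside -1.5 to 2.1 are not drawn. heph, lncRNA:Hsromega and sqd lie in the upper flank at 0.73 to 0.80, and the other 5 lie close to the median.

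Whether lncRNA:Hsromega and sqd stood above the median depended on the measure. The deposited bounds also give an approximate number of fragments per gene, on the assumption that they mark 2 standard deviations of counting error. For lncRNA:Hsromega that number was 600 with the control antibody and 517 with anti-Lsd1, before any scaling. After scaling for depth its log2 ratio of fragments was 0.0075 (-0.17 to 0.18), against a median of 0.43 over the 5472 eligible genes for which both libraries reached 20 fragments. By this measure 12.1% of those genes had a lower ratio, where by FPKM 92.8% did.

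For sqd the approximate fragments were 1250 and 1460, and the log2 ratio of 0.45 (0.34 to 0.56) lay at the median of this measure. For heph they were 206 and 282, with a ratio of 0.68 (0.41 to 0.94), so heph was the highest of the 8 by both measures, although this interval holds the median of 0.43. Summed with CG2003 inside its locus, the ratio of heph was 0.57. The other 5 had ratios between 0.28 and 0.43, and of these Hrb87F moved most, from 0.22 by FPKM. Hrb87F was at 0.42, Hrb98DE at 0.43, Hrb27C at 0.29, glo at 0.29 and nonA at 0.28, and among these only the interval of Hrb27C (0.19 to 0.39) lay below the median. Over the 8 genes the median by fragments was 0.36, and 3 lay above 0.43.

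**Figure D3:**
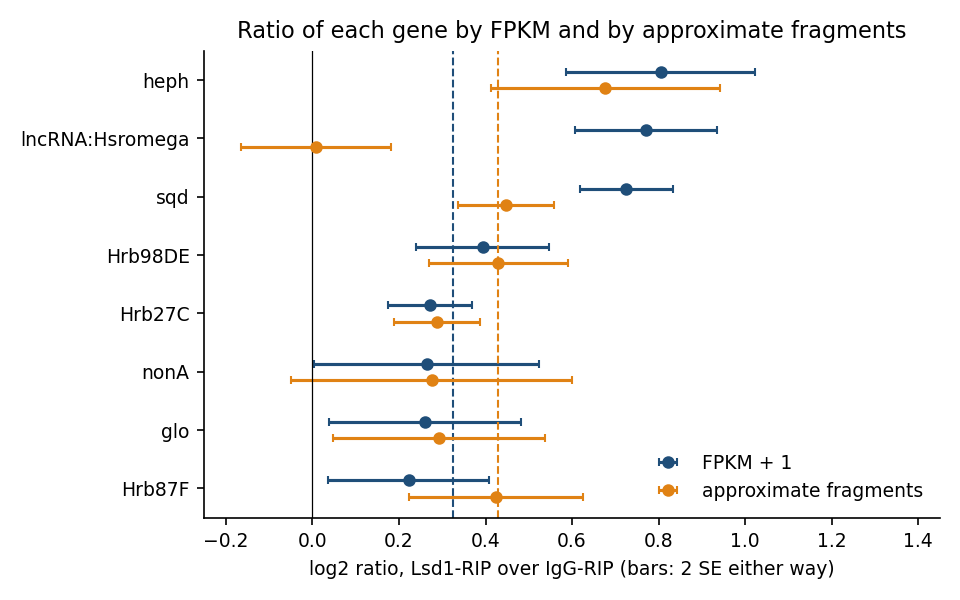
Log2 ratio of each of the 8 genes, Lsd1-RIP over IgG-RIP, by FPKM + 1 (blue) and by approximate fragments (orange), with bars of 2 standard errors either way and dashed lines at the all-gene medians of 0.32 and 0.43. The measures lie close for most genes and apart for lncRNA:Hsromega (0.77 and 0.0075) and sqd (0.73 and 0.45). Hrb87F moves in the other direction (0.22 and 0.42).

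The gap between the measures can be written as fragments per FPKM. In genes with near-whole fragment numbers the Lsd1-RIP library held 0.856 times as many fragments per FPKM as the IgG-RIP library. That factor was taken here as the difference in depth. lncRNA:Hsromega had 43.9 fragments per FPKM with the control antibody and 21.5 with anti-Lsd1. Relative to depth that is 0.572, the lowest of the 2572 eligible genes for which both libraries reached 100 fragments, whose interquartile range lay between 0.969 and 1.01. The values for sqd (0.813) and heph (0.819) were undercut by 31 and 35 of those genes. Hrb27C, Hrb98DE, glo and nonA lay between 0.964 and 1.01, and Hrb87F was at 1.14.

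A gene's FPKM is a sum over its transcripts, each scaled by its own length, and RefSeq lists 7 transcripts for lncRNA:Hsromega, 5 for sqd and 25 for heph. Fragments per FPKM fall when more of the fragments are given to shorter transcripts, and also when the bounds widen for reasons other than counting. Values per transcript were not used here, and the part of either in the Hsromega value was not tested. The fragment ratio comes from the same bounds and is no independent check of the FPKM ratio.

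**Figure D4:**
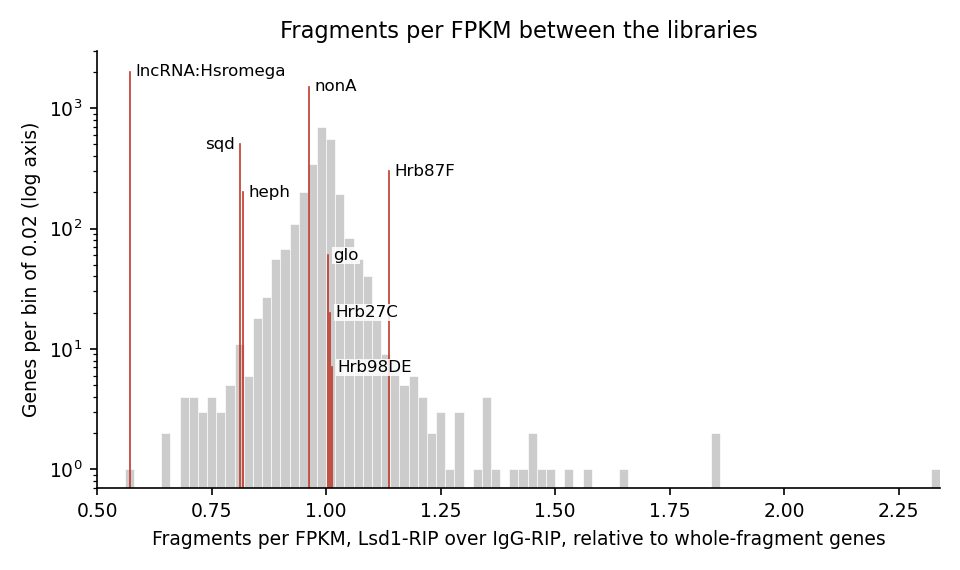
Fragments per FPKM in the Lsd1-RIP over the IgG-RIP library, relative to the 0.856 of near-whole genes, for 2572 genes that reached 100 fragments on both sides (bins of 0.02, log count axis), with the 8 genes as red lines. lncRNA:Hsromega at 0.572 is the lowest of all, sqd and heph lie near 0.81, and nonA, glo, Hrb27C and Hrb98DE lie in the central peak. Hrb87F lies above that peak at 1.14.

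The eligible genes nearest to lncRNA:Hsromega in FPKM over both libraries were mtrm, Pen, otu, fok and CkIIalpha, at distances of 0.019 to 0.083 on the log2 scale. mtrm, a meiotic inhibitor of Polo kinase, went from 13.6 to 23.7, and Pen, an importin alpha of the germline, from 14.2 to 24.1. otu, an ovarian gene whose protein works with Squid and Hrb27C on gurken mRNA, went from 13.0 to 24.8. By approximate fragments these 5 had ratios from 0.58 to 1.06, where lncRNA:Hsromega was at 0.0075. Likeness over 2 libraries is a weak measure, since it rests on 1 pair of values per gene.

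Other genes whose proteins are known to meet Hsromega RNA or omega speckles were centred on the all-gene median. All 11 were eligible, with a median log2 ratio of 0.32 and 5 above the all-gene median, and none was 2-fold changed (nej was, with a pseudocount of 0.1). The highest were nej, which encodes the acetyltransferase CBP, from 2.78 to 5.69 (ratio 0.82, interval 0.70 to 0.94), and Tnpo, the transportin that carries hnRNP proteins into the nucleus, from 3.25 to 6.04 (0.73, 0.55 to 0.91). Pep, a zinc finger protein of ecdysone puffs, lay below the median and went from 27.4 to 29.1 (0.08, -0.06 to 0.22). By approximate fragments nej and Tnpo were at 0.92 and 0.85, and Pep at 0.13. The median of the 11 was then 0.35, and 3 lay above the 0.43 of all genes. Sxl, the splicing regulator of sex determination and of germline differentiation, went from 10.8 to 15.9. Its log2 ratio was 0.51 by FPKM and 0.07 by fragments, a gap in the same direction as for lncRNA:Hsromega, and its fragments per FPKM relative to depth were 0.715.

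Of 19 further hnRNP-type and related RNA-binding protein genes, 17 were eligible, with a median ratio of 0.47 and 10 above the all-gene median. Rbp9 fell short of the FPKM minimum, and fne was listed at 0 in both libraries. how, a STAR-family splicing and stability regulator, went from 3.02 to 5.69 (0.74, 0.46 to 1.01), and qkr58E-1 of the same family from 2.50 to 4.66 (0.69, 0.35 to 1.04). The lowest were qkr58E-3, from 1.81 to 2.12 (0.15, -0.28 to 0.58), and Syp, the fly hnRNP Q/R gene, from 3.97 to 4.55 (0.16, -0.07 to 0.39). None of the 17 was 2-fold changed. By approximate fragments their median was 0.67, again with 10 above the all-gene median of 0.43.

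Transcripts that Squid, Hrb27C, Glorund and Hephaestus act on, and genes that act with them in the oocyte, lay higher by FPKM. All 15 were eligible and all 15 were above the all-gene median, with a median ratio of 0.57. The genes nos and orb were 2-fold higher, and grk has no fold, since it was at 0 in the control. With FPKM sums made equal, 13 were above the median and neither nos nor orb was 2-fold higher. With a pseudocount of 0.1, 13 were above the median and both were 2-fold higher. The highest listed above 0 in both libraries were nos, the target of Glorund, from 6.96 to 19.2 (1.34, 1.15 to 1.54), and orb, a translational activator of oskar, from 13.2 to 28.3 (1.04, 0.91 to 1.18). As for lncRNA:Hsromega, the measures were apart for orb, whose fragment ratio was 0.48 and whose fragments per FPKM relative to depth were 0.652. grk, the main target of Squid, was listed at 0 in the control and at 3.19 with anti-Lsd1, and its locus overlaps that of Akap200. Without grk the median was 0.55. The lowest were tral, from 37.6 to 47.7 (0.33, 0.23 to 0.44), and vas, from 10.5 to 13.6 (0.34, 0.14 to 0.54). By approximate fragments 11 of the 14 with enough of them exceeded the all-gene value of 0.43, and their own median was 0.47.

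The heat-inducible genes, which share the stress response of Hsromega, had a median ratio of 0.50 over 14 eligible members, with 11 above the all-gene median and none 2-fold changed. These 14 include the gene of the heat shock factor, Hsf, which was at 0.33. Hsp70Aa went from 13.1 to 25.8 (0.92, 0.77 to 1.07) and Hsp70Ab from 13.9 to 27.2 (0.92, 0.76 to 1.09). The Hsp70 copies are near-identical, so the division of fragments among them is uncertain. Hsp27 went from 26.4 to 26.8 (0.02, -0.19 to 0.22) and DnaJ-1 from 24.1 to 26.9 (0.15, -0.0054 to 0.31). By approximate fragments Hsp70Aa was at 0.97 and Hsp70Ab at 0.80, above 92.0% and 83.2% of genes, where lncRNA:Hsromega was above 12.1%.

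Among nuclear noncoding RNAs set beside lncRNA:Hsromega, snRNA:7SK, which restrains the elongation factor P-TEFb, went from 526 to 1054 (1.002, 0.92 to 1.08). RNaseMRP:RNA, of the rRNA-processing enzyme, went from 374 to 633 (0.76, 0.64 to 0.87), a ratio like that of lncRNA:Hsromega by FPKM, and RNaseP:RNA, of the tRNA-processing enzyme, from 179 to 209 (0.22, -0.06 to 0.50). Their fragment ratios were 1.004, 0.78 and 0.22, each close to the FPKM ratio. The roX RNAs and lncRNA:noe were not eligible, and lncRNA:roX1 was listed at 0 in both libraries.

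**Figure D5:**
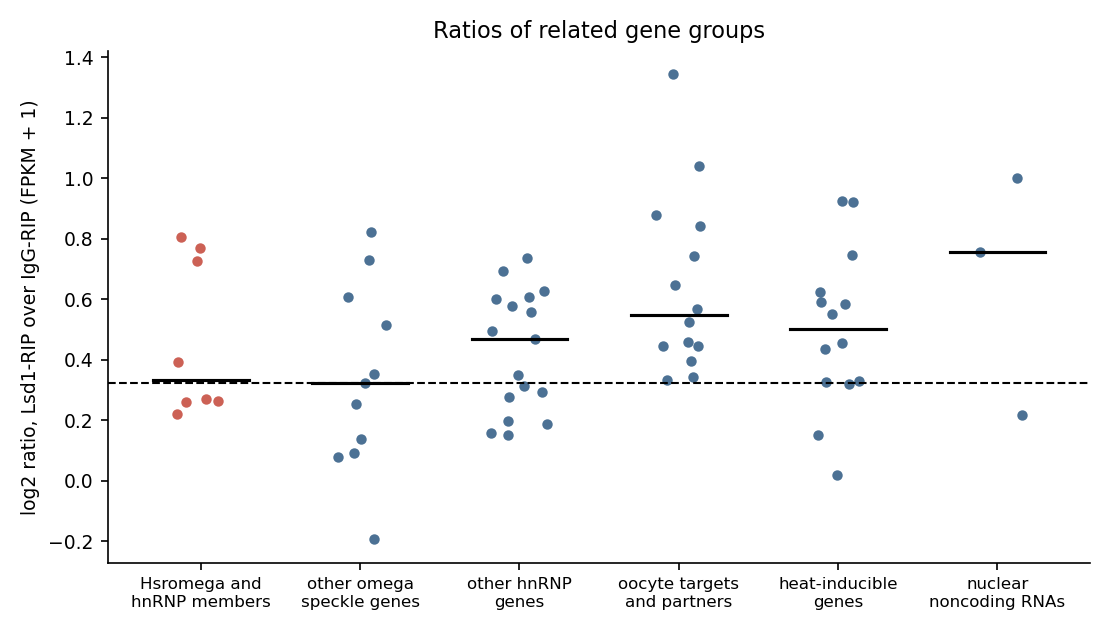
Log2 ratio of (FPKM + 1), Lsd1-RIP over IgG-RIP, for eligible members of each gene group (points; members listed at 0 in a library are left out, which removes grk), with the group median as a bar and the all-gene median of 0.32 dashed. The first group holds 3 genes at 0.73 to 0.80 and 5 at 0.22 to 0.39; the oocyte targets and partners all lie above the dashed line.

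The libraries held about 2661722 (IgG-RIP) and 2494964 (Lsd1-RIP) approximate fragments on listed genes, and a median eligible gene had 86.4 and 101. The 8 genes had 156 to 1744 in each library. Ovarian identity was checked by markers. Of 11 germline markers 10 were eligible, with summed FPKM of 158 and 289, and of 8 follicle and escort cell markers 6 were, with 19.5 and 29.2. The follicle and escort cell markers had a median log2 ratio of 0.28, with 2 of 6 above the all-gene median. By approximate fragments 3 of 6 lay above it. Muscle markers, which a sheath of the ovary can supply, were present at 146 and 130, and their median ratio was -0.19, with 1 of 7 above the all-gene median. No fat body, blood cell or neuron marker was eligible (summed FPKM at most 0.597 in either library), while the 4 gut enzymes had 13.5 and 19.3. The germline markers, 5 of which are also in the oocyte list, had a median ratio of 0.74 with 10 of 10 above the all-gene median (9 of 10 with FPKM sums made equal or a pseudocount of 0.1). That median is close to the 0.73 to 0.80 of heph, lncRNA:Hsromega and sqd by FPKM. By fragments the germline markers had a median of 0.67, with 8 of 9 above the all-gene median, beside 0.68, 0.0075 and 0.45 for heph, lncRNA:Hsromega and sqd. The part of germline RNA in those ratios was not tested. In a bulk lysate, few cells of a type and little RNA per cell cannot be told apart, but with 1 lysate shared by both reactions neither differed in their input.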

How the data were processed

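Gene FPKM values, with lower and upper bounds and a status per gene, were deposited by the authors, 1 table per library. Cufflinks, SAMtools 0.1.18.0, Bowtie2 2.0.6.0 and the build dm6 are listed, per the submitters' processing notes. Their roles, the Cufflinks version and the annotation were not given in the sources used here. Per the labels' protocols, poly(A) selection was skipped. Tables were joined by gene number and locus, with starts shifted to count from 1. Listed symbols bl and ISWI were matched to HnRNP-K and Iswi through RefSeq synonyms (assembly Release 6 plus ISO1 MT).

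Ratios used a pseudocount of 1, which understates changes of low genes. Approximate fragments were obtained by dividing 2 times FPKM by the gap between FPKM and its upper bound, and squaring. They were scaled by the median of fragments per FPKM between the libraries over 892 genes whose numbers, between 0.5 and 30, lay within 0.02 of whole in both. The calculation was tested on simulated data whose bounds held counting error alone. There fragments per FPKM changed between the libraries by the same factor for every gene. The test therefore cannot cover a gap between the measures such as that of lncRNA:Hsromega. Python 3.11.15, numpy 2.4.6 and pandas 2.3.3 were used.

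With 1 library per group no test was made. Alternatives were the pseudocount, 3 scalings, the measure, the FPKM minimum and summing of overlapping loci. Genes named are the 8 genes, overlapping loci, the 2 highest and 2 lowest of each other list (listed above 0 in both libraries) and the 5 nearest to lncRNA:Hsromega. A gene that this rule names is not reported here. grk, Sxl, Hsf, Rbp9, fne and the roX and noe RNAs were named after their values were seen. The genes and lists were chosen with earlier results of these data known. Sequences were not used here.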

Additional observations from a re-analysis of the deposited data

How the results depend on the processing

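No paired analysis was possible because each group has 1 library. Centring on the all-gene median, scaling to equal FPKM sums without rRNA genes, and removing the median of the 200 genes of like abundance lowered ratios by construction. In that order, lncRNA:Hsromega was then at 0.45, 0.40 and 0.47, the median of the 8 genes at 0.0079, -0.016 and 0.041, other speckle genes at -0.0014, -0.016 and -0.051, other hnRNP genes at 0.14, 0.14 and 0.091, oocyte targets and partners at 0.25, 0.26 and 0.28, and heat-inducible genes at 0.18, 0.17 and 0.15. By approximate fragments, alone or summed with overlapping loci, lncRNA:Hsromega was at 0.0075, and the cause was not tested. With a pseudocount of 5 the oocyte list was at 0.39 and 7 of the 8 genes lay above the all-gene median, which itself fell to 0.16. With no FPKM minimum 8 did, since unexpressed genes bring that median to 0. Under the other alternatives 3 or 4 lay above it (of 7 that pass an FPKM minimum of 5), and under every alternative none of the 8 was 2-fold changed. The single hnRNP genes were positive under both pseudocounts and both fragment measures; under each of the 3 scalings 3 of 7 were (sqd, heph and Hrb98DE). Genes 2-fold higher and lower numbered 128 and 42, against 476 and 52 with a pseudocount of 0.1, 32 and 15 with 5, 58 and 61 with equal sums, 398 and 0 by fragments, 70 and 11 with an FPKM minimum of 5, and 167 and 66 with none. Depth limits nonA and heph most, and intervals leave out the spread between precipitations.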

Other observations

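Across genes, the ratio rose with the number of transcripts that RefSeq lists. Among genes with at least 100 approximate fragments in each library, 2429 of 2572 matched a RefSeq symbol, 5 of them with no transcript listed. The 577 with 1 transcript had a median log2 ratio of 0.29 by FPKM and 0.34 by fragments, the 992 with 2 to 3 had 0.36 and 0.41, the 560 with 4 to 6 had 0.46 and 0.53, and the 295 with 7 or more had 0.53 and 0.61. heph, with 25 transcripts, had 0.80 and 0.68, but Hrb27C, with 8, had 0.27 and 0.29, below the median of its group by both measures. Fragments per FPKM between the libraries, relative to depth, had a median of 0.999 in the first group and 0.980 in the last, and 10% of genes lay below 0.976 and 0.887. By construction no gene in any of the 4 groups was below the 0.572 of lncRNA:Hsromega, which is the lowest of the 2572. Genes are not independent replicates, the number of transcripts may go along with gene length, which was not examined, and the cause was not tested.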
